A study of Equus caballus with 3 samples.

Results

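The immediate early genes are genes whose transcripts appear within minutes of a stimulus because the factors that switch them on are already present in the resting cell. Growth factors, stress and mechanical strain reach them through MAP kinases, which act on serum response factor (SRF) and its ETS partners at their promoters, and the transcripts are then removed quickly. Many of their products are themselves transcription factors, such as the FOS, JUN and ATF proteins that pair to form activator protein 1 (AP-1). Detachment and dissociation of cells are known inducers of these genes, so the handling of a culture before capture can change their level. Here, 10 of them (*FOS*, *FOSB*, *JUN*, *JUNB*, *EGR1*, *ATF3*, *IER2*, *IER3*, *DUSP1* and *KLF4*) were looked up by symbol in the count matrices of equine mesenchymal stromal cells (MSCs). For 9 of the 10 a gene entry was found in each of the 3 matrices, among 29927 genes in all. *IER2* had no entry under that symbol and was not analysed here.

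The MSCs came from 3 tissues, fat (adipose tissue, AT), marrow of bone (BM) and circulating blood (peripheral blood, PB), of 1 healthy Warmblood mare, 10 years old, and were captured after 2 passages in culture by droplet single-cell RNA sequencing, in which each transcript is tagged for its cell by a barcode and for itself by a unique molecular identifier (UMI). The labels name no treatment. Each source was 1 library, so a difference between sources cannot be told apart from a difference between cultures or between libraries, and no test was run across cells. The study states that its samples were handled in parallel. The time from detachment of the cells to capture is not given in the sources used here, and the part of handling in any result below was not tested.

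A barcode was kept if it held 2500 to 15000 UMIs, not over 3% of them from the mitochondrial chromosome, which left 5403 AT-, 5580 BM- and 5318 PB-derived MSCs with medians of 7291, 6874.5 and 7750 UMIs. The summed level of 5 MSC markers lay between 2345 and 2744 counts per 1000000 UMIs (CPM) in the 3 sources. Its largest part was *B2M*, at 1129, 1151 and 1781 CPM in AT, BM and PB, so the sum hides differences of other markers. *THY1* was at 665.0, 531.3 and 90.5 CPM and *CD44* at 690.8, 285.4 and 522.0 CPM in the same order. The summed level of 8 haematopoietic markers lay between 5.33 and 11.5 CPM and came mostly from *CD68*, while *PTPRC* had no UMI. The 6 endothelial markers together were at 0.264 to 0.7003 CPM. The titles of the samples give the 3 tissues and were followed here, although their source name reads as mononuclear cells of blood in each case. Only 42, 37 and 38 kept barcodes were shared between pairs of sources (AT with BM, AT with PB, BM with PB), but every kept PB barcode also occurred in the AT library at some depth, mostly under 2500 UMIs, where 5711 AT barcodes were also PB barcodes, and 74 kept AT barcodes occurred in the PB library. The 4867 of these AT barcodes with 500 UMIs or more had levels near those of PB, with *IER3* at 231.3 CPM against 229.9 CPM in kept PB and 67.7 CPM in kept AT cells, and they were left out by the lower UMI limit. For the immediate early genes looked up above, leaving these 74 and those shared with BM out moved no difference between sources by more than 0.01 on the log2 scale. The markers and the other genes reported here were not followed under this removal.

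Levels are CPM of the UMIs summed over the kept cells of a source, and differences are differences of log2(CPM + 1). The 95% intervals are exact Poisson intervals for levels and exact Clopper-Pearson intervals for shares, and they cover counting error only. Because a share of cells with a UMI grows with depth, shares are also given after every kept cell was thinned to 2500 UMIs. The cultures held no cells known to be without these genes, so a background from free RNA could not be taken from such cells.

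Summed over the 9 genes, the level was 607.5 CPM (599.9 to 615.2) in AT-, 807.0 CPM (798.2 to 815.8) in BM- and 872.2 CPM (863.3 to 881.3) in PB-derived MSCs. This sum follows the most abundant genes, above all *IER3*, at 67.7, 219.5 and 229.9 CPM, and *JUNB*, at 176.5, 149.8 and 285.5 CPM in AT, BM and PB. It is not a level that the 9 genes share. Nor is the sum scaled for the shift of the median of 8426 genes, which was -0.24 for AT over BM and 0.20 for BM over PB on the log2 scale. Part of the gap between AT and BM is therefore a shift that most genes show. At least 1 of the genes had a UMI in 95.6%, 96.7% and 98.2% of the cells, in the same order. The genes did not share 1 order of sources. *IER3* and *JUN* differed most from AT to BM, *IER3* from AT to PB, and *DUSP1* and *KLF4* from BM to PB, while *FOS*, *FOSB*, *EGR1* and *ATF3* stayed within 1.34-fold in every comparison. The plot of levels and shares shows these orders side by side.

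**Figure D1:**
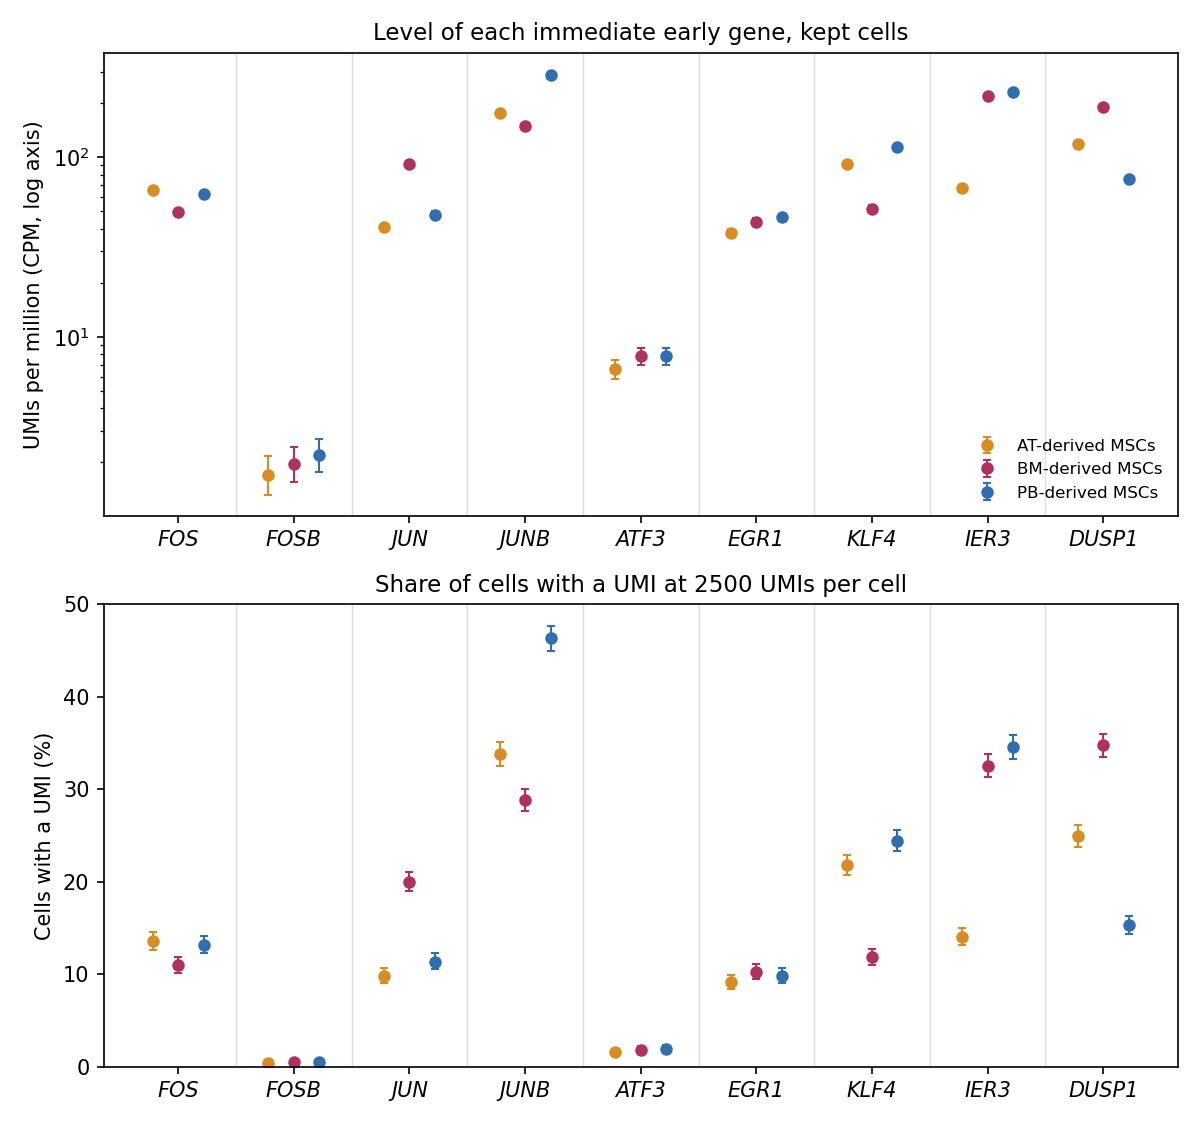
Level (top, CPM on a log axis) and share of cells with a UMI after thinning to 2500 UMIs (bottom, %) of the 9 immediate early genes in AT-, BM- and PB-derived MSCs, 1 library per source. Points are values and bars 95% counting intervals. *IER3* is low in AT only, *DUSP1* and *JUN* are highest in BM, *JUNB* and *KLF4* are highest in PB, and *FOS*, *FOSB*, *ATF3* and *EGR1* lie close together in the 3 sources.

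Among the AP-1 genes, *FOS* (chromosome 24 of EquCab3.0, forward strand), the classic partner of JUN proteins, was at 65.8 CPM (63.3 to 68.3) in AT, 49.3 CPM (47.1 to 51.5) in BM and 62.4 CPM (60.1 to 64.9) in PB. AT and PB could not be separated beyond their intervals, and BM was lowest, at a log2 difference of 0.41 below AT. *FOS* had a UMI in 31.6% of the cells in AT, 24.2% in BM and 30.6% in PB, and after thinning in 13.6%, 11% and 13.2%. *FOSB* (chromosome 10, forward strand), which takes the place of FOS in some AP-1 dimers, had only 68, 79 and 91 UMIs, or 1.70, 1.96 and 2.19 CPM, and its intervals overlapped in the 3 sources.

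*JUN* (chromosome 2, forward strand), which binds DNA as a dimer with itself or with FOS proteins, was at 40.7 CPM (38.8 to 42.8) in AT, 91.7 CPM (88.8 to 94.7) in BM and 48.0 CPM (45.9 to 50.1) in PB. BM stood apart from the other two sources, 2.25-fold above AT and 1.91-fold above PB. Of the BM-derived MSCs 43.9% had a *JUN* UMI, against 24.6% of the AT- and 28.6% of the PB-derived MSCs, and after thinning the share was 9.87% in AT, 20% in BM and 11.4% in PB. *JUNB* (chromosome 7, reverse strand), a weaker activator that can oppose JUN, had another order. It was at 176.5 CPM (172.4 to 180.6) in AT, 149.8 CPM (146.1 to 153.7) in BM and 285.5 CPM (280.4 to 290.7) in PB, so that PB was 1.62-fold above AT and 1.91-fold above BM. Up to 31 *JUNB* UMIs were counted in a single PB-derived cell, and 14.1% of the cells of this source had 5 or more, against 4.04% in AT and 3.08% in BM. *ATF3* (chromosome 5, reverse strand), a stress-induced factor of the same dimer family, was low, at 6.58, 7.80 and 7.81 CPM, and its intervals overlapped in the 3 sources.

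The zinc finger factors behaved differently from each other. *EGR1* (chromosome 14, reverse strand), a direct target of SRF and its ETS partners, was at 37.7 CPM (35.9 to 39.7) in AT, 43.8 CPM (41.8 to 45.9) in BM and 46.3 CPM (44.3 to 48.4) in PB, and the intervals of BM and PB overlapped. Its thinned shares of 9.16%, 10.3% and 9.85% had overlapping intervals in all 3 sources. *KLF4* (chromosome 25, forward strand), a regulator of growth arrest and of cell identity, was at 92.2 CPM (89.3 to 95.3) in AT, 51.6 CPM (49.4 to 53.9) in BM and 114.6 CPM (111.3 to 117.9) in PB. BM was lowest here, 2.22-fold below PB and 1.79-fold below AT, and a *KLF4* UMI was present in 45.8% of cells in AT, 26.5% in BM and 53.9% in PB.

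*IER3* (chromosome 20, reverse strand), a regulator of survival under stress and a target of NF-kB, showed the largest difference of the 9 genes. Its level was 67.7 CPM (65.2 to 70.3) in AT, 219.5 CPM (214.9 to 224.1) in BM and 229.9 CPM (225.3 to 234.6) in PB. AT was thus 3.24-fold below BM and 3.39-fold below PB, whereas BM and PB differed by only 1.05-fold. *IER3* had a UMI in 30.5% of cells in AT, 56.8% in BM and 60.7% in PB, and after thinning in 14.1%, 32.5% and 34.6%. The transcripts were unevenly spread over cells. At 2500 UMIs per cell the variance over the mean of *IER3* was 1.26 in AT, 1.88 in BM and 1.84 in PB, against 0.995 to 1.42 for the other 8 genes, and up to 51 UMIs were counted in a single PB-derived cell. Such a ratio can grow with the level, and the mean was 0.168, 0.548 and 0.559 *IER3* UMIs per thinned cell in AT, BM and PB. It therefore does not rank the sources or the genes by how unevenly their transcripts were spread.

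*DUSP1* (chromosome 14, forward strand) encodes a phosphatase that inactivates the MAP kinases and so feeds back on the pathway that induces it. It was at 118.5 CPM (115.2 to 122.0) in AT, 191.6 CPM (187.3 to 195.9) in BM and 75.5 CPM (72.9 to 78.2) in PB. All 3 sources were apart, with BM 2.54-fold above PB and 1.62-fold above AT. A *DUSP1* UMI was present in 51.0% of the cells in AT, 62.6% in BM and 37.8% in PB, and after thinning in 24.97%, 34.8% and 15.3%. The order of sources for *DUSP1* was the reverse of that for *KLF4*.

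Of the 9 genes, 8 had a mean of at least 5 CPM over the sources, as did 8426 genes in all, and *FOSB* did not. Between AT and BM, 0 of the 8 were at least 2-fold higher in AT, against 2.03% of all genes, and 2 (*JUN*, log2 difference -1.15, bounds -1.27 to -1.04, and *IER3*, -1.68, bounds -1.77 to -1.6) were at least 2-fold higher in BM, against 7.9% of all genes. Between AT and PB, 0 were higher in AT (3.55% of all genes) and 1, *IER3* (-1.75, bounds -1.83 to -1.67), was higher in PB (5.39% of all genes). Between BM and PB, *DUSP1* (1.33, bounds 1.25 to 1.41) was the 1 gene higher in BM (5.44% of all genes) and *KLF4* (-1.14, bounds -1.24 to -1.03) the 1 gene higher in PB (1.84% of all genes). With 8 genes, 1 gene is already a larger share than any of these backgrounds, so the counts add nothing to the values themselves. Short of 2-fold by the least were *JUNB* (-0.93) and *JUN* (0.92) for BM over PB and *KLF4* (0.83) for AT over BM.

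**Figure D2:**
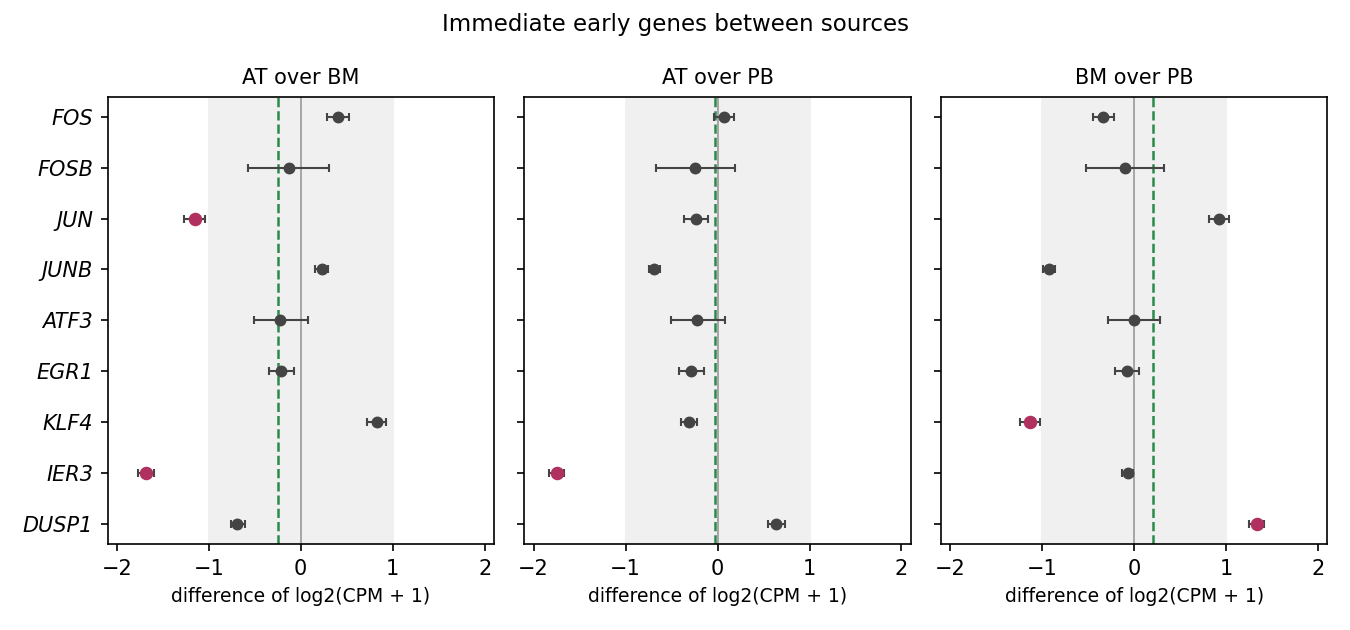
Difference of log2(CPM + 1) of each immediate early gene between pairs of sources, with counting bounds. Red points lie past a 2-fold difference, outside the grey band, and the dashed green line is the median of 8426 genes (-0.24, -0.03 and 0.20). *JUN* and *IER3* lie past it for AT over BM, *IER3* for AT over PB, and *DUSP1* and *KLF4* for BM over PB.

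The median gene was itself shifted, by -0.24 for AT over BM, -0.03 for AT over PB and 0.20 for BM over PB, while the medians of the 8 genes were -0.21, -0.26 and -0.07. Relative to the median gene, *JUN* was at -0.91 and *KLF4* at 1.07 for AT over BM, so the 2 genes exchanged their places around 2-fold, and *IER3* stayed at -1.44. For BM over PB the relative differences were 1.13 for *DUSP1*, -1.34 for *KLF4* and -1.13 for *JUNB*. With scaling by TMM factors, which centres most genes, the genes at least 2-fold apart between AT and BM were *IER3* and *KLF4*, and those between BM and PB were *JUNB*, *DUSP1* and *KLF4*. *EGR1*, *ATF3* and *FOSB*, with small differences, changed sign for AT over BM under that scaling, to 0.06, 0.03 and 0.05. TMM factors also moved the background, from 171 genes higher in AT and 666 in BM to 292 and 450, and from 458 genes higher in BM and 155 in PB to 310 and 241.

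In thinned cells, UMIs of many of these genes were rarely found together. Thinning itself lowers the shares, in PB from 76.53% to 46.35% for *JUNB* and from 60.72% to 34.56% for *IER3*. The values below are therefore limited by depth and do not give how many of the genes a cell expressed. The number of these genes per cell at full depth was not counted. After thinning, UMIs of 3 or more of the 9 genes were present in 12.8% (AT), 18.2% (BM) and 18.8% (PB) of the cells, and 11.8%, 17.2% and 18.3% would have been so if the genes were spread independently at their own shares. UMIs of 5 or more genes were found in 16 AT-, 47 BM- and 57 PB-derived cells, or 0.296%, 0.842% and 1.07%, beside 0.261%, 0.533% and 0.559% from the shares. The observed share was above that from the shares alone in all 3 sources. For 5 or more genes it rested on few cells, and in AT the 0.296% and 0.261% were close.

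Over the 36 pairs of genes, cells with both genes were 1.05 times (counting bounds 1.02 to 1.08) as many as the shares give in AT, 1.06 times (1.03 to 1.09) in BM and 1.06 times (1.03 to 1.08) in PB. The ratio was over 1 for 25, 24 and 28 of the 36 pairs. Among all pairs of genes found in at least 5% of the thinned cells, the median ratio was 1 in each source, and its 95th percentile was 1.19, 1.2 and 1.19. Of the 9 genes 7 passed that share, which gives 21 pairs, and 1 AT, 3 BM and 3 PB pairs lay above the 95th percentile of all pairs. These percentiles describe pairs that share the same cells and are no test. The numbers given by the shares are for a whole source, so a group of cells high or low in both genes also raises a ratio. Such groups are described below, as cluster 1 of BM for *IER3* and *KLF4* and cluster 6 of PB for *FOS* and *EGR1*. Their part in the ratios was not tested.

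All but 1 of these 7 pairs held *EGR1* or *FOS*. *FOS* and *EGR1* were found together in 84 BM-derived cells against 63.2 given by the shares, a ratio of 1.33 (1.06 to 1.65), and in 102 PB-derived cells against 69.1, a ratio of 1.48 (1.2 to 1.79), while in AT the ratio was 1.07 (0.838 to 1.35). *JUNB* and *EGR1* had ratios of 1.37 (1.2 to 1.56) in BM and 1.2 (1.06 to 1.34) in PB. *FOS* and the phosphatase gene *DUSP1* had ratios of 1.21 (1.05 to 1.38) in AT and 1.35 (1.14 to 1.59) in PB, and 1.08 in BM. The pair without either gene was *IER3* and *KLF4* in BM, with a ratio of 1.21 (1.07 to 1.37), and the same pair was at 0.869 (0.733 to 1.02) in AT. *JUN* (1.03, 1.01 and 1.01 in AT, BM and PB), *JUNB* (1.03, 1.02 and 1.03) and *IER3* (1.02, 1.02 and 1.04) had median ratios close to 1 with the other 6 genes. A gene found in many cells has less room above 1. The 95th percentile over all partners was 1.1, 1.12 and 1.08 for *JUNB*, against 1.23, 1.2 and 1.22 for *EGR1*. By these own percentiles *JUNB* had 2, 1 and 1 of the 6 genes above it, and *EGR1* 0, 2 and 1.

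**Figure D3:**
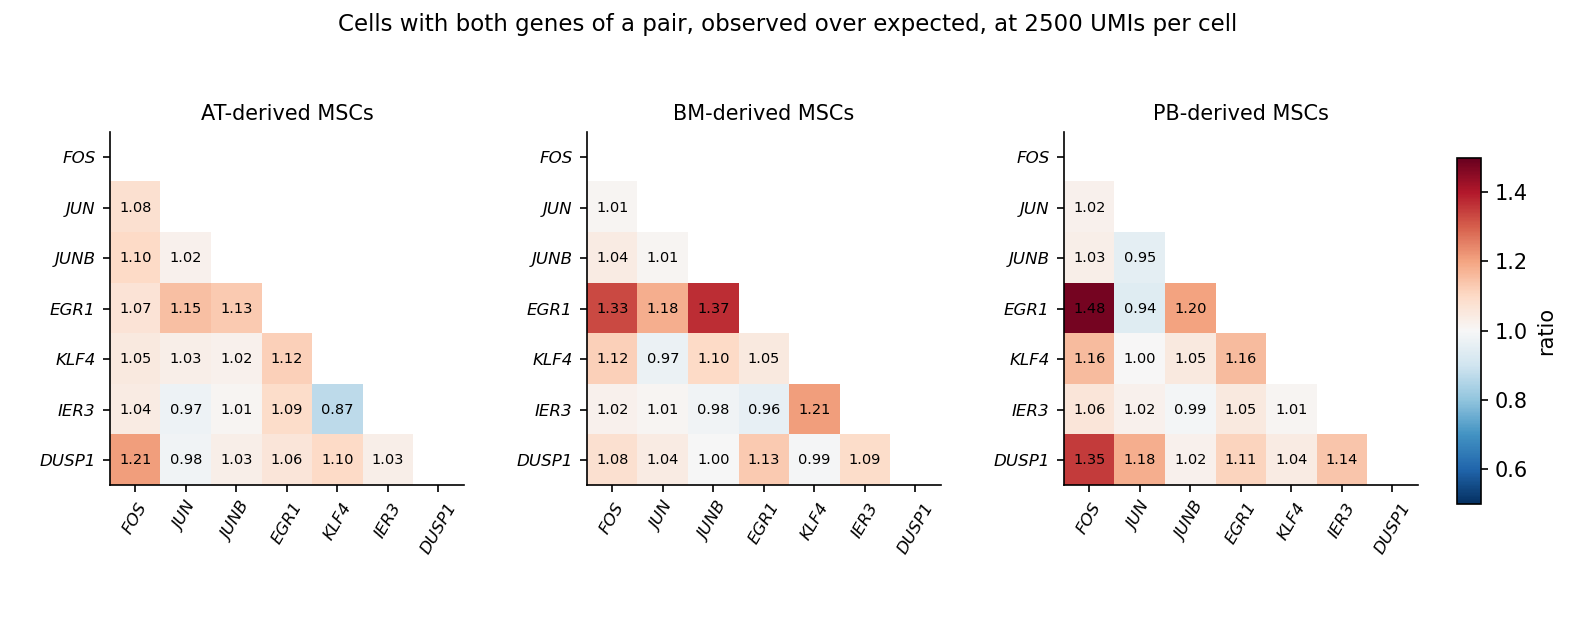
Number of cells with UMIs of both genes of a pair over the number expected from the 2 shares, at 2500 UMIs per cell, in AT-, BM- and PB-derived MSCs, for the 7 genes found in at least 5% of cells. Red is above 1 and blue below. The highest values are 1.48 for *FOS* with *EGR1* in PB and 1.37 for *JUNB* with *EGR1* in BM, and the lowest is 0.87 for *IER3* with *KLF4* in AT.

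Within each source the genes were set beside measures of cell state. Cells were placed in 3 groups of nearly equal size by mitochondrial share, with median shares of 1.13%, 1.42% and 1.80% in AT, 1.58%, 1.96% and 2.37% in BM and 1.204%, 1.55% and 1.92% in PB. *JUN* was higher with a higher mitochondrial share in every source, from 36.3 to 47.9 CPM in AT, from 80.3 to 99.97 CPM in BM and from 34.9 to 59.9 CPM in PB, comparing the lowest with the highest group. *EGR1* was likewise higher in every source, from 33.6 to 42.9 CPM in AT, from 39.8 to 47.6 CPM in BM and from 40.3 to 52.5 CPM in PB. *FOS* did the same in AT (56.2 to 74.8 CPM) and was higher in the upper 2 groups in PB (50.3, 68.8 and 68.0 CPM), but stood at 49.1, 48.9 and 49.8 CPM in BM. In PB *DUSP1* went from 60.7 to 90.96 CPM, while *JUNB* went the other way, from 315.0 to 263.9 CPM. *IER3* in AT stayed between 64.1 and 71.6 CPM across these groups and in BM and PB between 214.7 and 237.4 CPM. These groups were made within each source, so they do not hold the same mitochondrial shares in the 3 sources. They can also differ in their clusters. Cluster 6 of PB, described below, had a median share of 1.01%, with low *JUN*, *FOS*, *EGR1* and *DUSP1* and high *JUNB*. Its part in the PB values was not tested.

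The median mitochondrial share of the kept cells was 1.42% in AT, 1.96% in BM and 1.55% in PB. Heat shock genes, which respond to stress of handling and of other kinds, were summed beside it. The 10 found of 12 listed added up to 3198, 3216 and 3048 CPM in AT, BM and PB, and 0 of the 10 were at least 2-fold apart in any pair of sources, against 9.93% (AT and BM), 8.94% (AT and PB) and 7.28% (BM and PB) of all genes, so that 0 of 10 is near the background. The sums follow the most abundant genes of the list. The inducible *HSPA1A* was at 16.7, 33.3 and 18.7 CPM, *DNAJB1* at 63.8, 103.3 and 87.0 CPM and *HSPH1* at 16.1, 28.2 and 24.0 CPM. These genes and *HSPA8*, *DNAJA1* and *BAG3*, all named after their values were seen, were lowest in AT, *BAG3* by little (30.6, 31.3 and 33.4 CPM). The most abundant genes, given next, were lowest in BM or PB. Among the most abundant of the list, *HSPB1* was at 814.7, 943.5 and 698.9 CPM, *HSP90AB1* at 905.4, 661.3 and 809.7 CPM, *HSPD1* at 623.1, 433.4 and 646.3 CPM and *HSP90AA1* at 432.8, 577.7 and 404.1 CPM. Over the 10 genes the median difference was -0.352 for AT over BM, -0.116 for AT over PB and 0.235 for BM over PB. The medians over all genes were -0.24, -0.03 and 0.20. The part of depth, mitochondrial share and heat shock response in the differences between sources was not tested.

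Cell cycle phase, called from S and G2M gene scores within each source, moved with several of the genes. In BM the summed level was 878.9 CPM in cells called G1, 675.3 CPM in S and 598.9 CPM in G2M, and in PB it was 899.2, 842.3 and 728.7 CPM, whereas in AT the 3 phases lay between 605.7 and 621.9 CPM. *IER3* in BM was at 246.5 CPM in G1 and 100.7 CPM in G2M. *KLF4* was highest in G1 in BM (60.8, 34.9 and 24.6 CPM in G1, S and G2M) and in PB (125.2, 98.9 and 68.2 CPM), while in AT it was at 94.7, 86.2 and 97.0 CPM, where the intervals of G1 and G2M overlapped. With calls and levels from thinned cells, the sums in G1, S and G2M were 898.0, 666.4 and 657.5 CPM in BM, 907.6, 847.8 and 775.6 CPM in PB and 630.6, 639.8 and 591.1 CPM in AT, and *KLF4* was at 63.1, 41.1 and 27.8 CPM in BM, 129.8, 115.7 and 90.8 CPM in PB and 105.3, 97.7 and 101.6 CPM in AT. *JUN* was instead highest in G2M in AT and PB, with 37.7, 41.6 and 54.8 CPM in AT and 42.3, 54.0 and 78.9 CPM in PB, while in BM its intervals overlapped across phases. With thinned cells the AT values in G1 and G2M, 38.7 and 51.2 CPM, had intervals that overlapped. Phases can also differ in their clusters. In cluster 5 of BM, described below, 81.4% of the 666 cells were called S or G2M, with low *IER3*, *EGR1* and *KLF4*. Its part in the BM values was not tested. The calls could not be compared between sources. Cells called G1 made up 58.0% of the AT, 75.3% of the BM and 70.6% of the PB library, while proliferation genes added up to 384.0, 776.1 and 347.4 CPM, so that BM had both the largest share called G1 and the highest level of these genes. When only the cells called G1 in each source were used, *IER3* was at a log2 difference of -1.85 for AT over BM and *JUN* at -1.26, and *JUN* passed 2-fold for BM over PB, at 1.10.

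**Figure D4:**
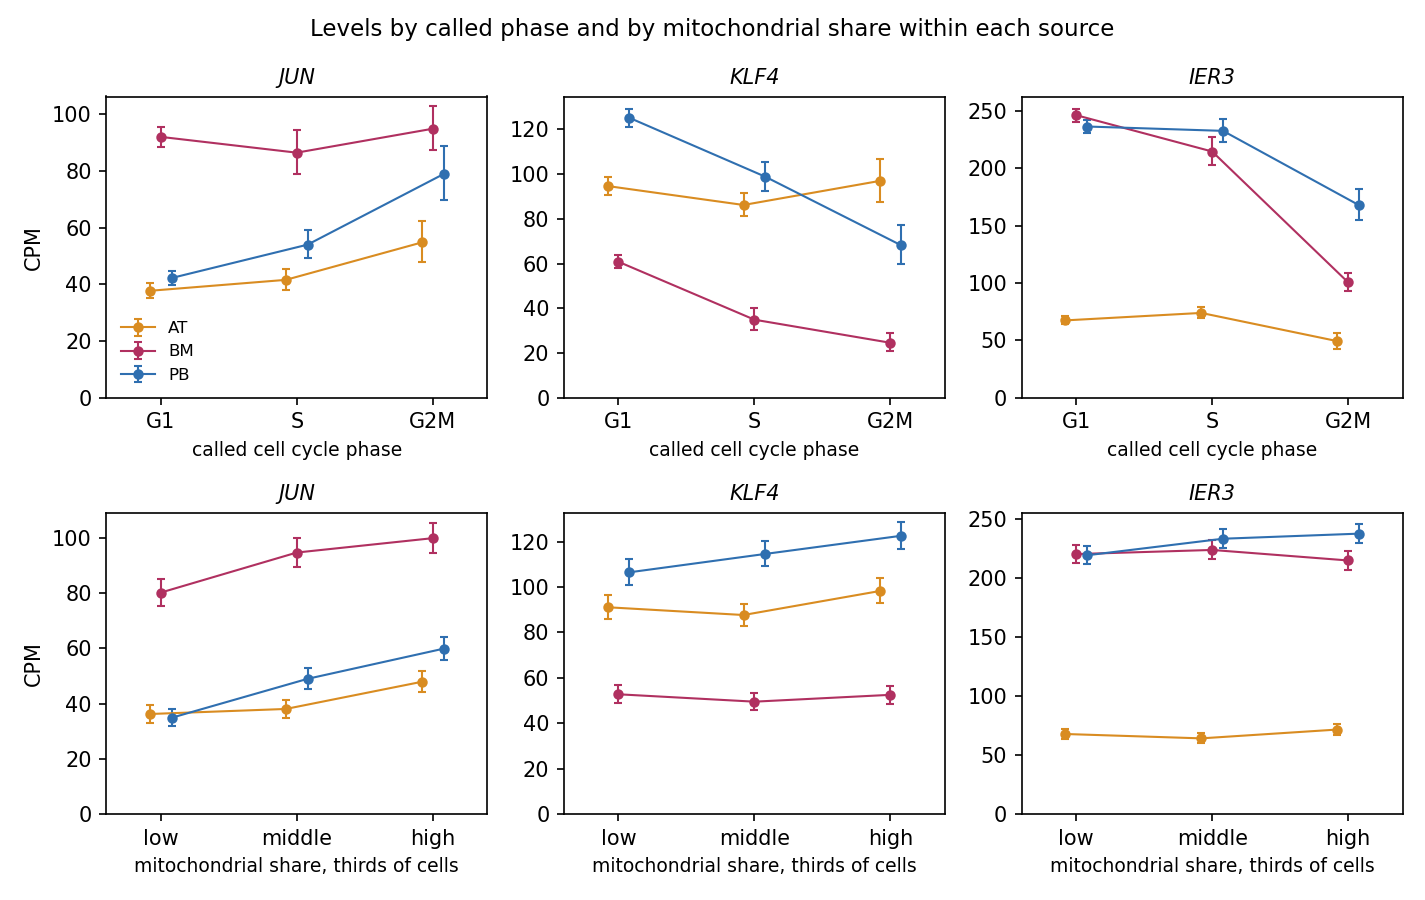
Levels (CPM, axis from 0) of *JUN*, *KLF4* and *IER3* by called cell cycle phase (top) and in groups of cells of nearly equal size by mitochondrial share (bottom) within each source, with 95% counting intervals. *JUN* is higher in G2M in AT and PB and at high mitochondrial share in all 3 sources, *KLF4* is lower outside G1 in BM and PB, and *IER3* in AT lies below BM and PB in every group.

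By depth of the cell, the summed level was highest in the shallowest group of each source, at 668.7, 630.7 and 562.8 CPM in AT, 931.1, 850.2 and 718.6 CPM in BM and 908.5, 901.1 and 833.9 CPM in PB from the lowest to the highest of 3 groups of nearly equal size. In PB the intervals of the lowest and middle group overlapped. *EGR1* in BM was at 70.9, 43.2 and 31.4 CPM in these groups. In PB *IER3* (205.1, 234.2 and 238.7 CPM) and *DUSP1* (65.5, 75.5 and 80.3 CPM) went the other way. Groups by depth can also differ in their clusters. Cluster 5 of BM, described below, had a median depth of 9498.5 UMIs, with *EGR1* at 21.6 CPM and a low sum. Its part in the BM values was not tested. After thinning of every kept cell, which gives each cell the same weight, *EGR1* was at a log2 difference of 0.08 for BM over PB, against -0.08 before.

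Cells were also clustered within each source on variable genes from which the 9 genes and 32 other immediate early genes had been left out, which gave 6 AT, 8 BM and 8 PB clusters. Clusters are given by number and leading genes. In AT the summed level differed little, from 573.9 CPM (559.4 to 588.6) in cluster 2, led by the smooth muscle genes *DES*, *CNN1* and *ACTA2*, to 669.5 CPM (652.0 to 687.4) in cluster 3. A group of 22 cells led by *ALPL*, an entry without a symbol and *CA2*, cluster 6, was at 694.6 CPM, with an interval (510.3 to 923.6) that overlapped those of the others. Its *ALPL* level was 325.1 CPM, against 325.6 CPM in kept PB and 2.88 CPM in all kept AT cells, and its *CCL2* level 428.6 CPM, against 560.0 and 16.3 CPM, so these 22 cells are not given as a state of AT cells. *IER3* was nevertheless higher in cluster 2 (93.9 CPM) than in the rest of AT (58.6 CPM).

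In BM the spread was wider. Cluster 1 (1599 cells, led by the bone matrix genes *IBSP* and *SPP1* and by *C15H2orf40*) was at 974.5 CPM (956.1 to 993.2), with 304.3 CPM of *IER3* and 92.0 CPM of *KLF4*, against 187.9 and 36.5 CPM in the rest of BM. Cluster 5 (666 cells, led by an entry without a symbol and by *CALCA* and *EMB*) was at 501.0 CPM (483.7 to 518.8), with 96.3 CPM of *IER3*, 21.6 CPM of *EGR1* and 25.7 CPM of *KLF4*, against 242.4, 47.9 and 56.4 CPM in the rest. In this cluster 81.4% of cells were called S or G2M, the heat shock genes added up to 4485 CPM against 2651 to 4153 CPM in the other BM clusters, and the median depth was 9498.5 UMIs. Cluster 4 had the highest *DUSP1* of the BM clusters (253.0 CPM), and its *IER3*, 315.2 CPM (300.8 to 330.1), was as high as that of cluster 1, whose interval (294.1 to 314.8) overlapped, while its *KLF4* was at 34.4 CPM.

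In PB, cluster 8 (152 cells, led by the chemokine genes *CXCL11*, *CXCL10* and *CCL20*) had the highest sum of all clusters, 1399 CPM (1333 to 1467). Its *IER3* level was 609.1 CPM (566.1 to 654.4), against 218.5 CPM in the rest of PB, and its *JUNB* level was 416.7 CPM (381.3 to 454.5), against 281.6 CPM. *FOS*, *JUN*, *EGR1* and *DUSP1* in this cluster had intervals that included their levels in the rest of PB, so the high sum came from *IER3* and *JUNB*, with 137.5 CPM of *KLF4* against 113.9 CPM. Cluster 6 (418 cells, led by an entry without a symbol and by *PIGK* and *LAMP2*) was lowest in sum, at 738.9 CPM (711.2 to 767.5). Here *FOS* was at 22.1 CPM, *JUN* at 20.1 CPM and *EGR1* at 21.8 CPM, against 66.3, 50.6 and 48.7 CPM in the rest of PB, while *JUNB* was at 329.4 CPM against 281.3 CPM. The cells of this cluster had the lowest median mitochondrial share in PB, 1.01%, and the highest sum of heat shock genes, 4451 CPM. In cluster 5, led by an entry without a symbol and by *IFITM5*, *FOS* (97.6 CPM) and *JUNB* (394.5 CPM) were high and *IER3* (121.2 CPM) was low. Cluster 5 of PB, cluster 4 of BM, cluster 3 of AT and the shallow clusters below were picked after their values were seen.

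*KLF4* was highest, at 149.7 CPM in AT and 212.5 CPM in PB, in cluster 4 of each, 2 groups of shallow cells with median depths of 3754 and 3767 UMIs that were both led by *ATP6V1C2* and also held *KLF3* among their first 3 genes. In the rest of each source *KLF4* was at 86.3 and 106.8 CPM. Without cluster 8 of PB and the 22 AT cells, *IER3* was at -1.68 for AT over PB.

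**Figure D5:**
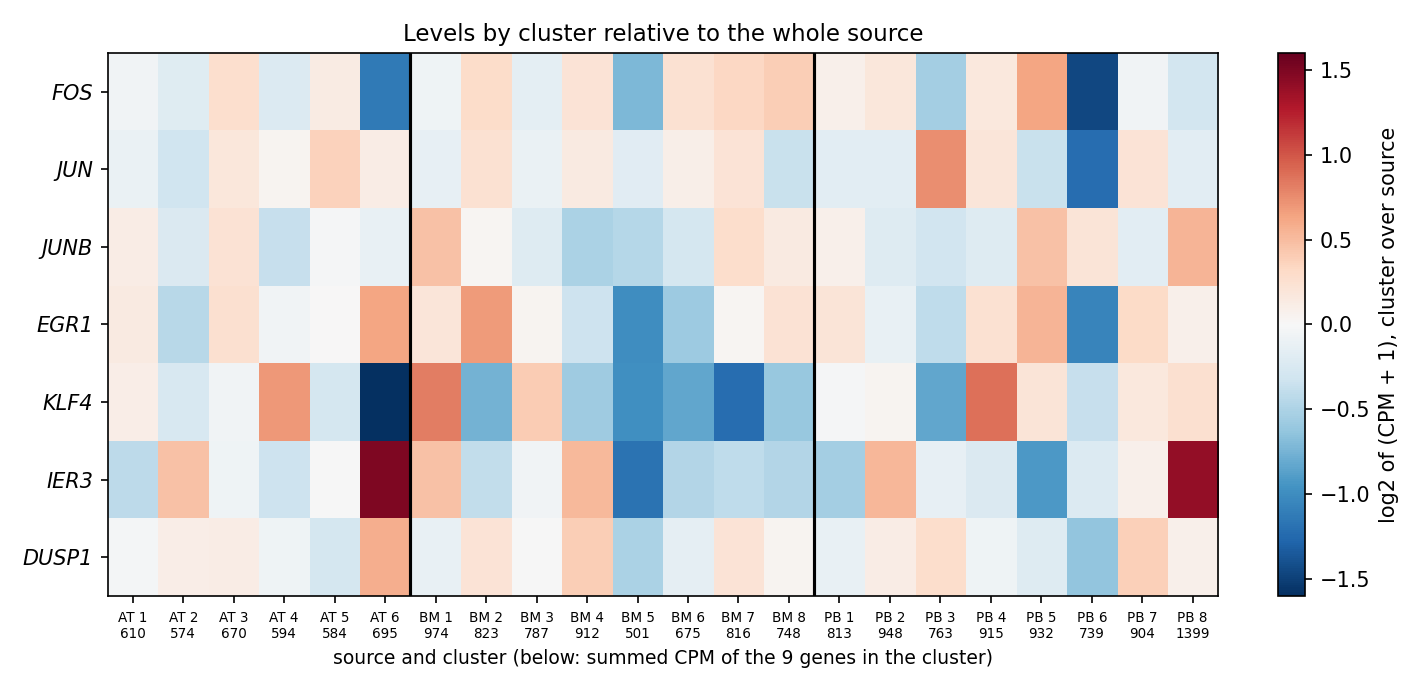
Level of 7 immediate early genes in each cluster relative to the whole source, as log2 of (CPM + 1), in 6 AT, 8 BM and 8 PB clusters made without these genes (colours end at -1.6 and 1.6). The numbers under the clusters are summed CPM of the 9 genes, from 501 in BM 5 to 1399 in PB 8. *IER3* is high in PB 8, *FOS*, *JUN* and *EGR1* are low in PB 6, and *IER3*, *EGR1* and *KLF4* are low in BM 5. AT 6 holds 22 cells and 47 UMIs of the 9 genes.

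Across cells, the genes whose level followed the summed level of the 9 genes most closely were ranked by Pearson's r of log-scaled UMIs, over the genes found in at least 10% of cells. In AT (5403 cells) these were *S100A10* (r = 0.14), *S100A4* (0.11), *CD63* (0.10), *PLAC9* (0.09) and *S100A3* (0.09). In BM (5580 cells) they were *RHOB* (0.21), *LUM* (0.19), *JAM2* (0.17), *CYR61* (0.17) and *CST3* (0.16), and in PB (5318 cells) *CCL7* (0.16), *CCL2* (0.15), *RHOB* (0.13), *ZFP36* (0.13) and *DDIT4* (0.12). The most negative values were of like size, with *UBE2C* (-0.17) and *STMN1* (-0.16), which act in cell division, among the lowest 5 in BM, *ACTG1* (-0.15) and *NPM1* (-0.14) lowest in PB and *TPM2* (-0.09) lowest in AT. All are weak, the cells share a library, and the median r over all such genes was within 0.01 of 0. *RHOB*, *CYR61* and *ZFP36* are themselves on the list of other immediate early genes.

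Of 32 other immediate early and early response genes, 31 had an entry and 19 a mean of at least 5 CPM. At least 2-fold higher in BM than in AT were 6 of the 19, *RHOB*, *CYR61*, *CTGF*, *SOCS3*, *FOSL1* and *KLF2*, against 7.9% of all genes, and 0 were higher in AT, against 2.03%. In PB 4 were higher than in AT (*RHOB*, *BTG1*, *CTGF* and *KLF2*; 5.39% of all genes) and 0 were lower (3.55%). BM exceeded PB in 3 (*CTGF*, *MYC* and *SGK1*; 5.44% of all genes) and was exceeded in 0 (1.84%). The medians of the 19 were -0.66, -0.29 and 0.43 for AT over BM, AT over PB and BM over PB, against -0.24, -0.03 and 0.20 over all genes. *CTGF*, which encodes a matricellular protein, was at 11.6, 199.3 and 42.9 CPM in AT, BM and PB. Its relative *CYR61* was at 303.7, 660.1 and 477.4 CPM and *RHOB*, a small GTPase, at 58.8, 245.2 and 176.4 CPM. *ZFP36L1*, which promotes decay of short-lived mRNAs, was at 272.4, 238.1 and 237.1 CPM, *BTG1* at 59.8, 100.2 and 146.5 CPM, *KLF6* at 73.2, 116.6 and 77.4 CPM, *PPP1R15A* at 46.0, 62.9 and 57.9 CPM and *MCL1* at 42.1, 69.0 and 43.9 CPM. *EGR4* had no UMI in any kept cell, which allows up to 0.0750, 0.0746 and 0.0721 CPM at 3 UMIs.

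Upstream, 12 of the 13 genes found of 14 listed between MAP kinases and SRF had a mean of at least 5 CPM. Both *ELK3*, an ETS partner of SRF, and *RPS6KA3*, a kinase activated by ERK, were at least 2-fold lower in AT than in BM (7.9% of all genes) and in PB (5.39% of all genes). None of the 12 was at least 2-fold higher in AT (2.03% and 3.55% of all genes) or 2-fold apart between BM and PB (5.44% and 1.84%). *ELK3* was at 36.4, 98.7 and 92.4 CPM and *RPS6KA3* at 15.01, 33.4 and 42.7 CPM in AT, BM and PB. *MAP2K1* was at 19.9, 35.2 and 24.4 CPM and *MAPK3* at 17.4, 26.5 and 16.5 CPM. The median of the 12 was -0.41, -0.08 and 0.14 for the 3 comparisons, beside -0.24, -0.03 and 0.20 over all genes.

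Of 13 feedback inhibitors other than *DUSP1*, 5 had a mean of at least 5 CPM. *SPRY1*, an inhibitor of receptor tyrosine kinase signalling, was at 8.20, 25 and 18.3 CPM and was at least 2-fold lower in AT than in both other sources, and *SPRED1*, of a related family, was at 7.55, 15.9 and 19.8 CPM and at least 2-fold lower in AT than in PB, which makes 1 of 5 for BM over AT (7.9% of all genes) and 2 of 5 for PB over AT (5.39%). *NAB2* and *NAB1*, which repress EGR proteins, were at 20.6, 17.0 and 25.1 CPM and at 7.48, 11.7 and 9.75 CPM. The median of the 5 was -0.68, -0.53 and 0.15, again beside -0.24, -0.03 and 0.20 over all genes. The part of proliferation in the differences between sources was not tested.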

How the data were processed

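Single-cell 3′ libraries (10X Genomics, v2) of AT-, BM- and PB-derived MSCs were made by the authors from 1 mare, and reads were mapped to EquCab3.0 with Cell Ranger and counted per gene with ESAT, which also takes reads just downstream of annotated genes and leaves out overlapping exons of opposite strands. The deposited values are raw UMI counts, whole numbers for each gene in each barcode, 48688055, 45327399 and 47380686 in all. The kept cells held 39980656, 40239295 and 41622445 UMIs. Symbols, chromosomes and strands are those of the matrices. Sources follow the sample titles. The multiplet caller of the authors was not run here, and the sources used here do not say if the matrices were made before or after its use. Doublets were limited by the upper UMI bound.

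Levels and differences were computed in Python 3.11.15 (pandas 2.3.3, SciPy 1.17.1). Phases and clusters were made with Scanpy 1.11.5, using the S and G2M lists of Seurat 5.3.0, of which 41 and 52 genes were found. TMM factors came from edgeR 4.0.16 in R 4.3.3. With 1 library per source no test was run. Genes past 2-fold were counted among those with a mean of at least 5 CPM. The script for differences was tested on simulated counts.

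The genes studied and the gene lists were chosen with earlier results of these data known. Named are all members, the 4 most abundant genes of each list (8 of the other immediate early genes), the 5 genes per source most correlated with the sum, the 3 leading genes of the clusters highest and lowest in sum, and genes said to be named after their values were seen or making up a count of at most 6. Proliferation and marker lists are given as sums. Named outside this rule are the markers *B2M*, *THY1*, *CD44*, *CD68* and *PTPRC*, *EGR4*, which had no UMI, and *UBE2C*, *STMN1*, *ACTG1*, *NPM1* and *TPM2*, which had negative correlations. Alternatives were other UMI and mitochondrial limits, leaving out those 5% of cells that scored highest by Scrublet, G1 cells, removal of shared barcodes, thinning, a pseudocount of 25 CPM, TMM factors, CPM averaged over cells, no filter on low genes and a threshold of 2 UMIs. The removal of AT barcodes held by another library at any depth and of 2 clusters was chosen after seeing the data. No sequences of these genes are printed, because no genome or sequence table of this build was at hand.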

Additional observations from a re-analysis of the deposited data

Results flagged for a closer look

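Barcodes under 500 UMIs, which the comparisons left out, had a higher level (CPM) of the 9 immediate early genes than the kept cells in PB and AT. In PB 203 such barcodes with 62322 UMIs held 255 UMIs of these genes, or 4092 CPM (3605 to 4626), 4.69 times the level of the kept cells. These UMIs were concentrated, since 72 of the 203 barcodes held any and 29 held 4 or more, with *FOS* at 706.0 CPM, *DUSP1* at 834.4 CPM, *IER3* at 802.3 CPM, *JUNB* at 786.2 CPM, *EGR1* at 337.0 CPM, *ATF3* at 240.7 CPM, *JUN* at 192.5 CPM and *FOSB* at 32.1 CPM. *KLF4*, at 160.5 CPM (76.95 to 295.1), had an interval that included its 114.6 CPM in kept cells. The median mitochondrial share of these barcodes was 0.699%. Mitochondrial genes made up 9.43% of their pooled UMIs, against 1.56% in the kept PB cells, and the 54 barcodes over the mitochondrial limit held 106 of the 255 UMIs. Only 2 of the 203 occurred in another library. A rise was not particular to the 9 genes. Among genes counted often enough in these PB barcodes to be ranked by log2 difference from the kept cells, *FOS* (3.48), *DUSP1* (3.45) and *EGR1* (2.84) were at places 22, 23 and 29. Higher ones included the entry *RF01518* (10.67, place 1), *ADAMTS1* (6.83) and *PLK2* (4.38), named after their values were seen. In AT 969 barcodes held 371 such UMIs, or 1107 CPM (997 to 1225), 1.82 times the kept cells, although *DUSP1* was at 95.5 CPM (65.3 to 134.8) against 118.5 CPM in kept cells, and 846 of the 969 also occurred in another library. The 844 that were also PB barcodes held 1005 CPM of these genes (893.7 to 1125) and had *IER3* at 212.4 CPM, against 229.9 CPM in kept PB and 67.7 CPM in kept AT cells. They also held *ALPL* at 296.6 CPM (325.6 in kept PB, 2.88 in kept AT cells), *JAM2* at 138.2 CPM (165.9 and 1.6) and *CCL2* at 475.3 CPM (560.0 and 16.3), named after their values were seen, so that the level in AT barcodes under 500 UMIs cannot be read as that of AT cells. The 125 not in PB held 73 UMIs of the 9 genes, 1894 CPM (1485 to 2382). In BM 143 barcodes held 25 UMIs, 574.1 CPM (371.5 to 847.4), an interval that included the 807.0 CPM of the kept cells. What these barcodes hold was not tested.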

How the results depend on the processing

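Among the immediate early genes looked up at the start, no difference past 2-fold changed its direction under any alternative. Genes of the other lists were not followed singly under the alternatives. *IER3* stayed past 2-fold in all 12 alternatives for AT over BM (-1.85 to -1.37) and AT over PB (-1.79 to -1.44), as did *DUSP1* for BM over PB (1.10 to 1.48). The values of -1.37 and -1.44 came from all barcodes with at least 500 UMIs, which takes in AT barcodes that were also PB barcodes (4867 before the mitochondrial limit, with *IER3* at 231.3 CPM), and the other 11 alternatives reached -1.4 and -1.46. *JUN* did so in 10 of 12 for AT over BM (-1.26 to -0.83, not with TMM factors or the pseudocount of 25 CPM), and *KLF4* in 11 of 12 for BM over PB (-1.37 to -0.87, not with that pseudocount). With a pseudocount of 25 CPM the number of genes past 2-fold was 1 between AT and BM and 1 between BM and PB in place of 2 each, and of all genes 57 and 151, 71 and 108, and 91 and 36 in place of 171 and 666, 299 and 454, and 458 and 155 were higher in the first and in the second source. Such a constant shrinks differences of low genes by construction. Without the filter on low genes these numbers were 339 and 1041, 581 and 729, and 745 and 292 of 19625 genes, and with TMM factors 292 and 450, 316 and 435, and 310 and 241. BM over PB gave 3 genes with TMM factors and 3 in cells called G1. For the cells called G1 the share over all genes was not computed, so that count has no background beside it. With a threshold of 2 UMIs, co-detection was 1.36 in AT, 1.28 in BM and 1.23 in PB, and the cause was not tested. The other 19 co-detection values under alternatives lay within the bounds of the reported value of their source. Of the log2 differences under alternatives, 281 moved by less than counting error and 43 by more. Co-detection in barcodes with at least 500 UMIs was not run, since these cannot be thinned to 2500 UMIs. No paired analysis was possible because each source had 1 library. Depth limits *FOSB* and *ATF3*, and no value has a replicate check.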
